A study of Mus musculus with 3 samples.

Results

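Collagens and laminins are the main structural proteins of the matrix around cells, and here their genes were followed across the cell classes found beside mouse intrinsic cardiac neurons. The set is every annotated gene whose symbol is Col, a number and a (a collagen chain) or Lama, Lamb or Lamc and a number (a laminin α, β or γ chain). It holds 55 genes, 44 collagen and 11 laminin chains, of 30406 genes annotated in all 3 libraries. Of 56 symbols that fit the pattern, 1 (Col4a3bp, a lipid transfer protein) is not a collagen chain and was left out. The libraries are single-cell RNA sequencing (10x Genomics 3′ kit) of green fluorescent cells sorted from heart atria of Baf53b-cre;lox-GFP mice of both sexes, in which Cre made under the neuronal Baf53b (Actl6b) promoter switches on a GFP reporter. All 3 groups carry these alleles and none was treated. The mixed library is labelled as atria with no region (2 months of age), the anterior library as the anterior atrial section (3 months) and the posterior library as the posterior section (4 months). The protocol names 10 mice without tying them to libraries, no source says whether libraries share animals, and region, library and labelled age cannot be told apart.

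Collagens are trimers of α chains. The fibrillar collagens I, III, V, XI and XXVII build the fibres of connective tissue. Collagen IV forms the sheet of basement membranes, to which laminins, heterotrimers of 1 α, 1 β and 1 γ chain, tie the cell surface. Fibroblasts are the main source of fibrillar collagen in the heart, while Schwann cells and satellite glia, endothelial cells and mural cells (smooth muscle cells and pericytes) are each wrapped in a basement membrane. Neurons of peripheral ganglia are enclosed by satellite glia and their basement membrane.

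Of 8361 barcodes, 7091 passed the filters on depth and mitochondrial RNA, and the libraries shared at most 2 barcodes. Cells were placed in a class by 8 marker genes per class, none of them a collagen or laminin, and neurons by at least 10000 UMIs (unique molecular identifiers, counted RNA molecules) with Snap25, Prph and Stmn2 detected. In the mixed, anterior and posterior libraries this gave 1971, 1314 and 1443 neurons, 78, 75 and 153 fibroblasts, 92, 168 and 190 glia, 71, 22 and 29 mural cells and 22, 29 and 30 endothelial cells. All 8 markers of its own list were found in every class and library. The summed level of its own markers was 168 to 243 UMIs per 10000 in fibroblasts, 131 to 215 in glia, 224 to 267 in mural cells and 60.001 to 69.9 in endothelial cells. Some gates held UMIs of another class's markers. Fibroblast markers summed to 24.2 UMIs per 10000 in the mixed endothelial cells, against 5.32 in the anterior and 0.48 in the posterior ones, and mural markers summed to 14.7 in the mixed fibroblasts, against 0.849 and 1.40. In the mixed library 1 gene gave most of each sum. Dcn stood at 22.5 in the endothelial cells, where Dpt and Clec3b were at 0, and Acta2 stood at 12.6 in the fibroblasts. Whether these UMIs came from cells of the other class was not tested. Median depth was 2184 to 7205 UMIs per cell in the 4 non-neuronal classes and 39858.5 to 57355 in neurons. The non-neuronal cells had passed a sort for neuronal fluorescence, so they are those that came with the neurons and not a census of the ganglion.

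Levels are given as UMIs per 10000 UMIs of a class in a library, so that the 3 libraries give 3 values. For a class whose count was 0, the level that 3 counts stand for was 0.03 to 0.0912 in fibroblasts, 0.0365 to 0.0862 in glia, 0.0796 to 0.273 in mural cells and 0.241 to 0.385 in endothelial cells. These limits and all intervals below (95%) cover counting error only.

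Fibroblasts had the highest summed level of the 55 genes in each library. The sum in fibroblasts was 95.6, 145 and 254 UMIs per 10000 in the mixed, anterior and posterior libraries. Mural cells had 43.6, 50.1 and 76.2, glia 30.3, 38.9 and 35.8, and endothelial cells 21.0, 23.4 and 30.5. Neurons stood far below all of them, with 0.636, 0.903 and 1.40. The 4 non-neuronal classes kept this order in each library, and no neuronal value came near a non-neuronal one. The make-up also differed. Col1a1, Col1a2 and Col3a1 gave 60.4%, 62.1% and 74.2% of the set's UMIs in fibroblasts and 35.3% to 46.0% in mural cells, but 14.9% to 18.3% in glia and 4.46% to 6.58% in endothelial cells. Laminins gave 5.76% to 10.8% of the set's UMIs in fibroblasts, 16.8% to 18.98% in glia and 16.3% to 28.7% in endothelial cells. In neurons laminins gave 46.9%, 43.6% and 32.7%.

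**Figure D1:**
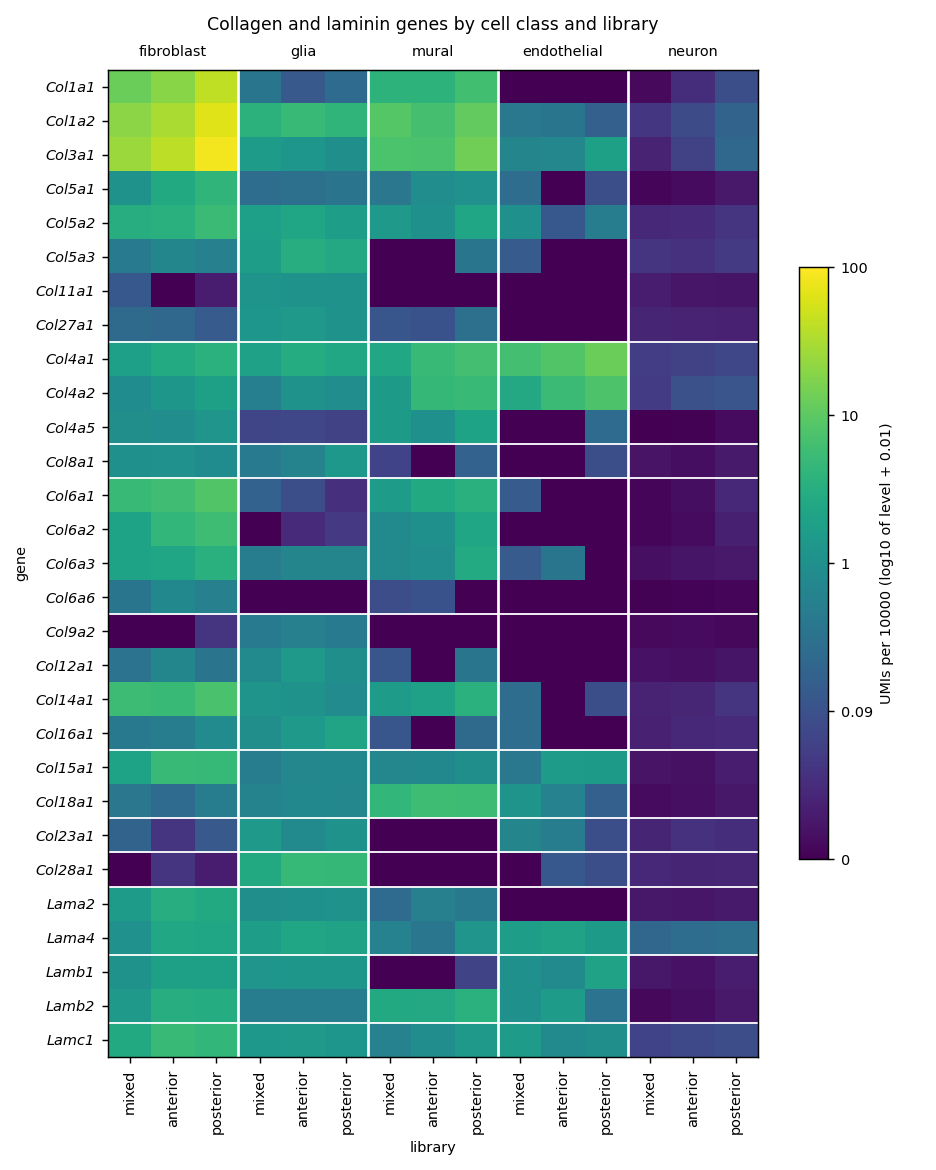
Level of 29 collagen and laminin genes (rows, grouped by kind of chain) in 5 cell classes of the mixed, anterior and posterior libraries (columns), in UMIs per 10000 on a log colour scale. The fibrillar genes at the top are brightest in fibroblasts, where Col3a1 reaches 83.9 in the posterior library, Col28a1 is bright in glia, Col18a1 in mural cells and Col4a1 in endothelial cells.

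Counts summed per class and library were then compared with edgeR's quasi-likelihood test with the library as a block and Benjamini-Hochberg adjustment over 7686 genes. The p-values rest on how far class differences varied between these 3 libraries, once shifts shared by all classes were removed. That spread was pooled over the 5 classes. Only 32 of the 55 genes passed the filter on low counts. The other 23 had a median of 31 UMIs over the 5 classes. A gene can pass the filter through the class where it is high, so the following counts describe the tested genes and are no evidence about the set. Against the mean of the other 4 classes, 26 of the 32 were higher in fibroblasts (21.1% of all tested genes were) and 0 were lower (9.8% of all; 1 at an unadjusted p under 0.05 and 1 by DESeq2). In glia 19 were higher and 1 was lower (22.7% and 16.3% of all genes). In mural cells 19 were higher and 2 lower (14.5% and 9.11%). In endothelial cells 5 were higher and 7 lower (13.7% and 9.77%), numbers that were 3 and 3 without the anterior library, and 4 lower without the posterior one. In neurons 0 were higher (38.9% of all genes; 0 at an unadjusted p under 0.05 and 0 by DESeq2) and 21 were lower (30.5% of all; 32 of the set by DESeq2). The mean of the other classes is taken on the log2 scale, where a class with 0 UMIs weighs heavily. Col1a1, with 0 UMIs in endothelial cells, was at -2.91 in neurons and not among the 21. Yet in fibroblasts it was 9.84 above neurons on the log2 scale. The median log2 difference over the 32 genes was 3.77 in fibroblasts, 1.16 in glia, 2.60 in mural cells, -1.57 in endothelial cells and -4.54 in neurons, where the medians over all genes lay between -0.12 and 0.11.

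A stricter rule asked that a gene pass the test in 1 class against each of the other 4. It was met by 23 genes. Fibroblasts had 13 of them (3.81% of all tested genes met the rule for fibroblasts), glia 8 (6.62%), mural cells 1 (3.16%), endothelial cells 1 (4.02%) and neurons 0 (19.9%; 0 also at unadjusted p-values under 0.05 and by DESeq2). All 23 were highest in the named class in each of the 3 libraries, and for 21 the lowest library of that class stood above every library of the other classes. The fibroblast count was 8 without the anterior library, 12 without the mixed and 12 without the posterior library. Without each library in turn the endothelial count was 0 (anterior or posterior left out) or 1 (mixed left out).

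The fibrillar chains divided between fibroblasts and glia. Col1a1 and Col1a2 encode the 2 chains of collagen I, the main collagen of fibres, and Col3a1 encodes collagen III, which lies in the same fibres. In fibroblasts Col3a1 stood at 24.8, 39.5 and 83.9 UMIs per 10000 (mixed, anterior and posterior, the order kept below), and in mural cells, the next class, at 7.49, 7.1 and 13.4. The classes did not overlap, and the difference was 2.38 ± 0.45 on the log2 scale (SE, edgeR adjusted p = 0.000726). Col1a1 stood at 12.7, 19.2 and 41.2 in fibroblasts and at 3.88, 3.91 and 6.12 in mural cells, a log2 difference of 2.30 ± 0.53 (edgeR adjusted p = 0.00486). Col1a2 stood at 20.3, 31.4 and 63.0 in fibroblasts and at 8.68, 6.64 and 11.1 in mural cells, a log2 difference of 2.07 ± 0.34 (edgeR adjusted p = 0.000179). All 3 were lowest in the mixed and highest in the posterior fibroblasts. The calls for Col1a1 and Col3a1 did not hold without the anterior library. Fibroblast markers summed to 3.95, 2.45 and 1.37 UMIs per 10000 in mural cells, against 168 to 243 in fibroblasts. These markers did not keep their fibroblast proportions in mural cells. Mfap5 stood at 3.11, 2.09 and 0.686 there, while Dcn, at 103 to 180 in fibroblasts, stood at 0.398, 0 and 0.0572. The part of fibroblast RNA in the mural values was not tested.

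Collagen V joins collagen I and sets the width of fibres. Col5a1 stood at 1.14, 2.68 and 4.19 in fibroblasts and at 0.372, 0.910 and 1.03 in mural cells (log2 difference 1.93 ± 0.31, edgeR adjusted p = 0.000164). Col5a2 stood at 3.07, 3.44 and 5.24 in fibroblasts and at 1.81, 2.27 and 1.67 in glia (log2 difference 1.17 ± 0.27, edgeR adjusted p = 0.00172), a call that did not hold without the posterior library. Col5a3, the third chain of collagen V, went the other way. It stood at 1.75, 3.09 and 2.60 in glia, above 0.438, 0.669 and 0.551 in fibroblasts (log2 difference 2.02 ± 0.34, edgeR adjusted p = 9.51e-05). So the 3 chains of collagen V were not highest in the same class.

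Glia were highest for a further pair of fibrillar chains. Col11a1, a chain of collagen XI best known from cartilage, stood at 1.15, 1.10 and 1.11 in glia, against 0.117, 0 and 0.01 in fibroblasts, and no UMI of it was found in mural or endothelial cells. Col27a1, which encodes collagen XXVII, stood at 1.24, 1.40 and 1.10 in glia and at 0.234, 0.213 and 0.130 in fibroblasts (log2 difference 2.63 ± 0.31, edgeR adjusted p = 3.77e-06). Both chains varied little between the libraries.

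Glia also carried RNA of 1 collagen I chain with little of the other. Col1a2 stood at 3.65, 4.94 and 4.11 UMIs per 10000 in glia while Col1a1 stood at 0.345, 0.122 and 0.243. The ratio of Col1a1 to Col1a2 UMIs was 0.0945 (interval 0.0476 to 0.171), 0.0247 (0.00897 to 0.0545) and 0.0592 (0.0357 to 0.0929) in glia. In fibroblasts it was 0.623, 0.611 and 0.654, and in mural cells 0.446, 0.589 and 0.552. No glial interval reached a fibroblast or mural value. Fibroblast markers summed to 0.0861, 0.283 and 0.182 UMIs per 10000 in glia.

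**Figure D2:**
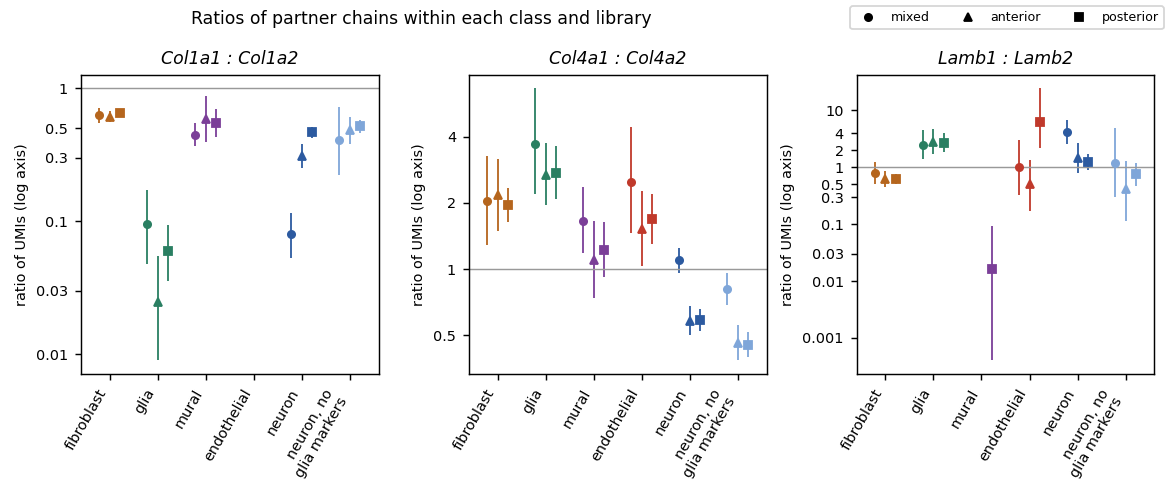
Ratio of UMIs of 2 partner chains (log axes) in each class, with 1 point per library (circle mixed, triangle anterior, square posterior) and 95% counting intervals. Col1a1 to Col1a2 is under 0.1 in glia and above 0.4 in fibroblasts and mural cells, Col4a1 to Col4a2 is above 1 in the 4 non-neuronal classes, and Lamb1 to Lamb2 is above 2 in glia and under 1 in fibroblasts. Points are missing where either count was 0.

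Summed over the cells of a class, collagen IV RNA was highest in endothelial cells. Its common network contains 2 chains of Col4a1 and 1 of Col4a2. Col4a1 stood at 6.41, 8.13 and 12.8 in endothelial cells, at 2.47, 5.01 and 6.29 in mural cells, at 1.78, 2.83 and 3.63 in fibroblasts and at 1.92, 3.01 and 2.42 in glia. Its lowest endothelial value was above the highest mural one, and the difference was 0.88 ± 0.23 on the log2 scale (edgeR adjusted p = 0.0116). The call did not hold without the anterior or without the posterior library. In the mixed library 1 of 22 endothelial cells held 50% of the Col4a1 UMIs of its class, and 1 held 45% of the Col4a2 UMIs. The median mixed endothelial cell had 0.998 UMIs of Col4a1 per 10000, below the median mixed mural cell at 2.05. In the anterior and posterior libraries the endothelial medians were 4.10 and 12.8, above the mural medians of 3.65 and 6.43. Col4a2 stood at 2.57, 5.34 and 7.63 in endothelial cells and at 1.49, 4.55 and 5.15 in mural cells. These ranges overlapped and the log2 difference of 0.39 ± 0.22 did not pass (edgeR adjusted p = 0.261). With cells allowed at most 1 marker of any other class, an alternative chosen after seeing the data, Col4a2 passed too.

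Col4a1 (chromosome 8, 11198423 to 11312826, minus strand) and Col4a2 (11312805 to 11449287, plus strand; GENCODE M21, GRCm38) lie head to head and overlap at their 5′ ends. The 22 bases shared by the first exons of both, at chr8:11312805-11312826 and from the RefSeq promoter table on GRCm38.p6, are shown on the plus strand because they are where transcription of both genes begins.
Col4a1 and Col4a2 shared start: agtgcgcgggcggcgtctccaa
The ratio of Col4a1 to Col4a2 UMIs was 3.72 (interval 2.19 to 6.66), 2.69 (1.96 to 3.74) and 2.73 (2.07 to 3.62) in glia. In mural cells it was 1.66 (1.18 to 2.36), 1.10 (0.736 to 1.65) and 1.22 (0.917 to 1.63). The glial ratio was above the mural one in each library, with intervals that did not overlap in the anterior and posterior libraries. Fibroblasts had 2.03, 2.16 and 1.96 and endothelial cells 2.50, 1.52 and 1.68.

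The minor collagen IV chains were found in mural cells and fibroblasts. Col4a5 and Col4a6, which form a network in smooth muscle and other basement membranes, also lie head to head, 1308 bases apart on chromosome X. Col4a5 stood at 1.51, 1.00 and 2.06 in mural cells and at 0.935, 0.912 and 1.19 in fibroblasts, a log2 difference of 0.55 ± 0.37 that did not pass (edgeR adjusted p = 0.364). Col4a6 stayed at or under 1.27 in mural cells and 0.487 in fibroblasts, and no UMI of it was found in glia or endothelial cells. Col4a4 reached at most 0.669, in the anterior fibroblasts, and Col4a3, its head-to-head neighbour 71 bases away, had 31 UMIs in all.

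Collagen VI, which forms beaded filaments between the basement membrane and the fibres, was a fibroblast and mural collagen. Col6a1 stood at 4.997, 6.02 and 8.08 in fibroblasts and at 1.62, 2.64 and 3.49 in mural cells (log2 difference 1.49 ± 0.39, edgeR adjusted p = 0.0104). Col6a2 stood at 2.10, 4.38 and 5.70 against 0.796, 1.00 and 2.29 (log2 difference 1.69 ± 0.31, edgeR adjusted p = 0.000744). Col6a3 stood at 2.05, 2.22 and 3.47 against 0.796, 0.910 and 2.80, and the mural range reached into that of the fibroblasts. Its call (log2 difference 0.96 ± 0.29, edgeR adjusted p = 0.0256) held in 7 of 14 alternative settings and was lost without the mixed and without the anterior library. The call for Col6a1 was lost without the anterior library. Glia had 0.172, 0.0812 and 0.0243 of Col6a1, but 0.488, 0.650 and 0.657 of Col6a3. Col6a6, a rarer α chain, stood at 0.351, 0.730 and 0.541 in fibroblasts, and its call was lost without the anterior and without the posterior library.

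The fibril-associated collagens, which decorate fibres without forming them, also divided. Col14a1 stood at 5.46, 4.96 and 7.08 in fibroblasts and at 1.57, 1.91 and 3.54 in mural cells (log2 difference 1.49 ± 0.27, edgeR adjusted p = 0.000533). Col16a1 stood at 0.948, 1.40 and 2.15 in glia and at 0.409, 0.487 and 0.851 in fibroblasts (log2 difference 1.16 ± 0.28, edgeR adjusted p = 0.00293). Col12a1 stood at 0.776, 1.42 and 0.986 in glia and at 0.321, 0.669 and 0.330 in fibroblasts (log2 difference 1.19 ± 0.35, edgeR adjusted p = 0.0140), a call lost without the posterior library. Col9a2, a chain of collagen IX, stood at 0.460, 0.548 and 0.450 in glia, and fibroblasts had 3 UMIs of it in all.

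Collagens XV and XVIII, whose ends release endostatin-like fragments, were highest in different classes. Col18a1 was the 1 gene above each other class in mural cells. It stood at 4.41, 5.64 and 5.49 there and at 0.603, 0.731 and 0.706 in glia (log2 difference 2.97 ± 0.30, edgeR adjusted p = 3.59e-07). Slc19a1 overlaps Col18a1 on the opposite strand by 8825 bases, and the strand setting of the counting is not given in the sources used here. Col15a1 stood at 2.07, 4.90 and 4.73 in fibroblasts and at 0.385, 1.63 and 1.53 in endothelial cells (log2 difference 1.97 ± 0.33, edgeR adjusted p = 0.000278).

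Col28a1 was found in glia and hardly at all in the other 3 non-neuronal classes. Collagen XXVIII is a beaded collagen known from peripheral nerve, where it lies in the basement membrane around glia. It stood at 2.70, 4.71 and 4.56 UMIs per 10000 in glia (701 UMIs in all). Mural cells had no UMI of it, and fibroblasts and endothelial cells had 2 each. Neurons had 434, at a far greater depth, or 0.0184, 0.0157 and 0.0174 per 10000. At 2000 UMIs per cell, 34.3%, 53.8% and 53.6% of glia had a Col28a1 UMI. Col23a1, a transmembrane collagen, stood at 1.41, 0.772 and 1.07 in glia and at 0.641, 0.464 and 0.0803 in endothelial cells. Its call (log2 difference 1.73 ± 0.56, edgeR adjusted p = 0.0279) was lost without the posterior library, without normalization factors, without the neurons that carried glial RNA and with cells thinned to 2000 UMIs. Col8a1, a short-chain collagen, did not separate fibroblasts (1.02, 1.03 and 0.861) from glia (0.431, 0.609 and 1.36; log2 difference 0.39 ± 0.32, edgeR adjusted p = 0.370).

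The promoters of Col3a1, high in fibroblasts, and Col28a1, high in glia, are shown as 1 example from each of these classes. Each is given as the 250 bases before the RefSeq start on GRCm38.p6, and neither overlaps an annotated exon. They were searched on both strands for 3 promoter motifs, with matches in capitals. These were the CCAAT box, the TATA box in its form TATAAA, and the GC box in its form GGGCGG, none of which overlaps another in these windows.
Col3a1, chr1:45311288-45311537, plus strand: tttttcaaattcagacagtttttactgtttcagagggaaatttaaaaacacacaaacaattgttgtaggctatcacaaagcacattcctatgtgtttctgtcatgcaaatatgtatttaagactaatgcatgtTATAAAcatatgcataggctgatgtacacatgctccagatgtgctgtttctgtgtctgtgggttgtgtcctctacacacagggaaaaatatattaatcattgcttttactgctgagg
Col28a1, chr6:8192618-8192867, minus strand: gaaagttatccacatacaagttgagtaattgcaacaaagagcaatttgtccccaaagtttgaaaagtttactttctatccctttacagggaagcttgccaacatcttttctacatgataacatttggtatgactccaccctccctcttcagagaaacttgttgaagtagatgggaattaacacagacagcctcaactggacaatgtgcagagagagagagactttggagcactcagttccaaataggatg
The Col3a1 window held 1 match, a TATAAA that begins 117 bases before the start, and the Col28a1 window held 0. Of all 32851 windows in the table, 12.4% held TATAAA, 33.8% CCAAT and 32.7% GGGCGG. Of the 44 windows of the 40 genes of the set found in the table, 11.4%, 31.8% and 54.5% did. These are matches of letters only.

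Among laminin α chains, Lama2 and Lama4 were shared by several classes. Lama2, the α chain of muscle and Schwann cell basement membranes, stood at 1.61, 3.13 and 2.65 in fibroblasts and at 0.977, 1.02 and 1.07 in glia (log2 difference 1.43 ± 0.23, edgeR adjusted p = 8.39e-05), and endothelial cells had no UMI of it. Lama4, the α chain of vessels and peripheral nerve, stood at 1.05, 2.52 and 2.35 in fibroblasts, 1.69, 2.27 and 1.97 in glia, 1.67, 1.97 and 1.53 in endothelial cells and 0.584, 0.364 and 1.20 in mural cells. The first 3 classes overlapped throughout, with differences of at most 0.50 ± 0.31 on the log2 scale (edgeR adjusted p = 0.318 for fibroblasts against endothelial cells). Fibroblasts and glia were above mural cells (log2 differences 1.47 ± 0.31 and 1.33 ± 0.31, edgeR adjusted p = 0.00184 and 0.00231). Lama5, an α chain of vessel walls and epithelia, reached 0.398, 0.455 and 0.858 in mural cells and 0.641, 0 and 0.0803 in endothelial cells.

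The β chains Lamb1 and Lamb2 differed between glia and mural cells, while fibroblasts held both. Neither was above each other class in 1 class. Lamb1 and Lamb2 can take the same place in a laminin trimer. Lamb1 stood at 1.11, 1.89 and 1.87 in fibroblasts, 1.21, 1.32 and 1.28 in glia and 1.03, 0.813 and 2.01 in endothelial cells. Mural cells had 1 UMI of it in all, in the posterior library, a level of 0, 0 and 0.0572. Lamb2 stood at 2.68, 2.55 and 3.54 in mural cells, 1.37, 3.04 and 3.00 in fibroblasts, 1.03, 1.63 and 0.321 in endothelial cells and 0.488, 0.467 and 0.475 in glia. Mural cells were above glia by 2.77 ± 0.39 on the log2 scale (edgeR adjusted p = 1.72e-05) and did not differ from fibroblasts beyond the spread (0.22 ± 0.33, edgeR adjusted p = 0.745). The ratio of Lamb1 to Lamb2 UMIs was 2.47 (interval 1.38 to 4.63), 2.83 (1.73 to 4.77) and 2.69 (1.85 to 3.99) in glia and 0.809 (0.513 to 1.27), 0.620 (0.444 to 0.860) and 0.623 (0.516 to 0.751) in fibroblasts. These intervals did not overlap in any library.

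Lamc1, the γ chain of most laminins, was found in every class. It stood at 2.72, 4.96 and 4.51 in fibroblasts, 1.35, 1.40 and 1.24 in glia, 1.54, 0.813 and 0.963 in endothelial cells and 0.584, 0.910 and 1.43 in mural cells. Fibroblasts were above glia by 1.77 ± 0.23 on the log2 scale (edgeR adjusted p = 6.19e-06).

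The 23 genes that were not tested were rare in all 5 classes. Of the 55 genes, 9 had under 20 UMIs in all: Col2a1 (13), Col9a1 (5), Col10a1 (5), Col19a1 (5), Col22a1 (12), Col24a1 (15), Col25a1 (7), Lama1 (3) and Lama3 (6). Col8a2, Col9a3, Col11a2, Col13a1, Col17a1, Col20a1, Col26a1 and Col4a3 had 25 to 110. Col6a4, Col6a5, Col7a1, Lamb3 and Lamc3 had 98 to 280, more of them in the far deeper neurons than in the 4 other classes together. When all genes with a UMI were tested, Col6a5 passed in fibroblasts and Col11a2 in glia.

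In neurons every chain was low, and the question was which of these low levels exceeded the RNA of other cells in the same barcodes. Glial RNA was common there: 24.3%, 13.9% and 13.8% of neurons in the mixed, anterior and posterior libraries had at least 3 glial markers. For each gene the level given by other cells was computed from the markers of the 4 non-neuronal classes found in neurons. This assumes that RNA from 1 source keeps its genes in 1 ratio. Egfl7 was left out because it stood at 0.634 to 0.770 UMIs per 10000 in neurons and the other endothelial markers at most at 0.0436. Some markers that were kept did not hold the ratio. Rgs5 and Acta2 stood at 0.190 and 0.0379 in posterior neurons, against 10.7 and 159 in posterior mural cells. Flt1 and Pecam1 stood at 0.0436 and 0.00504 in anterior neurons, against 10.4 and 11.4 in anterior endothelial cells. A marker above its ratio raises the level computed, and by how much was not tested. Of 29 genes with at least 20 UMIs in neurons of each library, 7 reached at least 2 times the level given by other cells in all 3 libraries, or 24.1%, where 95.3% of all genes did. The other 22 stood closer to it or below it in at least 1 library. In neurons with fewer than 3 glial markers, where the level given by glia is lower by choice of the cells, 11 of 15 genes of the set did (73.3%), and 12628 of 12739 of all genes.

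**Figure D3:**
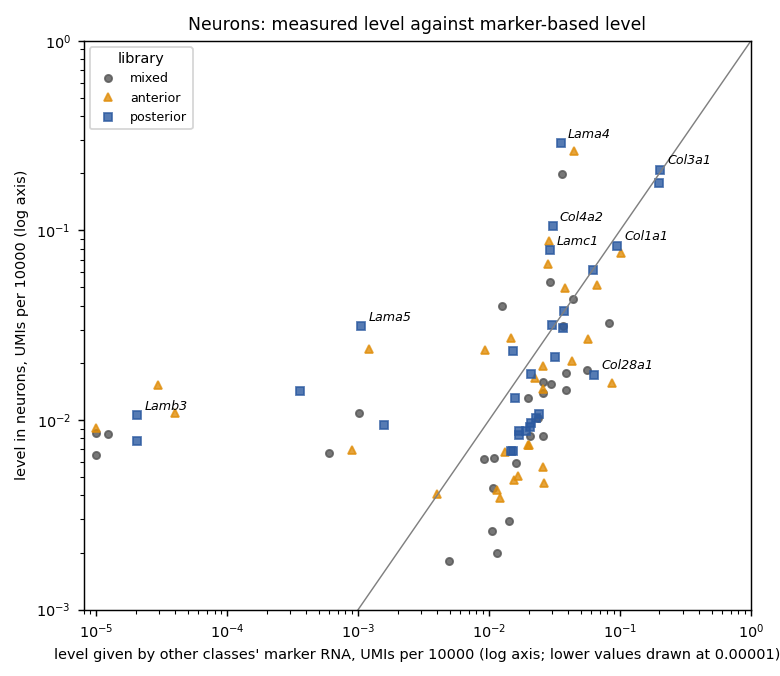
Level of 29 collagen and laminin genes in neurons (vertical, UMIs per 10000, log axis) against the level that markers of the other 4 classes give (horizontal, log axis), with 1 point per gene and library and a line of equality. Most points lie on or under the line, as Col3a1 and Col28a1 do in the posterior library, while Lama4 and Col4a2 lie above it in all 3 libraries.

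Lama4 was the chain that stood out in neurons by amount. Its level was 0.198, 0.262 and 0.289 UMIs per 10000 in neurons, 5.46, 5.84 and 8.22 times what the markers of other cells gave. It was nearly as high or higher in neurons with fewer than 3 glial markers (0.193, 0.267 and 0.300) as in those with at least 3 (0.214, 0.226 and 0.213). A UMI of Lama4 was found in 66.2%, 54.8% and 66.0% of neurons at their full depth. Thinned to 2000 UMIs per cell, 3.91%, 6.70% and 8.94% of neurons had one, against 32.9%, 33.0% and 31.4% of glia. In the posterior library its level was 0.0302 in macrophages (1 UMI) and 0 in lymphocytes, where 3 counts would be 0.0906 and 0.111. In the other libraries these cells held too few UMIs to show a level like that of neurons. Cells that passed a cardiomyocyte marker list had 1.03 and 1.14 in the anterior and posterior libraries. Those that passed a chromaffin list had 1.43 and 0.830. Neither gate entered the level given by other cells. At least 3 cardiomyocyte markers were found in 2.08%, 33.2% and 29.1% of neurons. The part of cardiomyocyte RNA in the neuronal Lama4 level was not tested. Neurons were still below each other class, by 1.51 ± 0.32 (mural cells) to 2.99 ± 0.24 (fibroblasts) on the log2 scale (edgeR adjusted p = 0.000541 and 4.93e-09).

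Col4a2 was also among the 7. It stood at 0.0399, 0.0883 and 0.105 in neurons, 3.19, 3.11 and 3.43 times the level given by other cells. Col4a1, its partner, stood at 0.0437, 0.0515 and 0.0615, which was 0.994, 0.770 and 0.982 times that level. The ratio of Col4a1 to Col4a2 UMIs was 1.1 (interval 0.963 to 1.24), 0.583 (0.5 to 0.68) and 0.586 (0.523 to 0.656) over all neurons, where the lowest non-neuronal value was 1.10 (anterior mural cells). In neurons with fewer than 3 glial markers it was 0.813 (interval 0.687 to 0.962), 0.463 (0.384 to 0.555) and 0.453 (0.397 to 0.518). Lama5, another of the 7, stood at 0.0109, 0.0236 and 0.0312, at least 10.7 times what other cells gave in each library. Col6a5, Col7a1 and Lamb3, 3 more of the 7, stood at or under 0.0108 in neurons. Lamc1 was not among them: it stood at 0.0532, 0.0662 and 0.0788, or 1.81, 2.33 and 2.71 times the level given by other cells, under 2 times in the mixed library. For Lamb3 the markers gave 0 in 2 libraries, and it overlaps the genes G0s2 and Hsd11b1 on the opposite strand. Col1a1, Col1a2 and Col3a1 did not exceed the level given by other cells 2-fold in the mixed or posterior library, and 1 anterior neuron held 56.2% of all Col1a1 UMIs of that class.

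In fibroblasts the collagen I and III genes were higher in the posterior than in the anterior library. With 1 library a region there is no test, and ratios carry counting intervals only. Of 27 genes with at least 20 UMIs in the higher library, 5 were at least 2-fold higher in posterior fibroblasts (6.89% of all such genes were) and 1 was at least 2-fold higher in anterior ones (1.28%). Col1a1 was 2.15-fold higher in the posterior library (interval 1.97 to 2.34), Col3a1 2.13-fold (2.01 to 2.26) and Col1a2 2.01-fold (1.88 to 2.15). In the median cell as well the posterior library was higher: the median anterior fibroblast had 29.7 UMIs of Col3a1 per 10000 and the median posterior one 50.9. Col6a5 went from 2 UMIs (level 0.0608) to 68 (level 0.681), a ratio of 11.2 with a wide interval (2.98 to 94.3), and 26.5% of the posterior UMIs were in 1 cell. Col18a1 was 2.02-fold higher (0.947 to 4.93) and Col12a1 was 0.494 times its anterior level (0.279 to 0.889). The latter pair lay near the limit of 2-fold: with 1 more marker required of each cell Col12a1 came to 0.508 and Col18a1 came just under 2-fold.

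The laminins and Col15a1 stood near their anterior level. In fibroblasts Lama2 was at 0.847 times its anterior level in the posterior library (interval 0.672 to 1.07), Lama4 at 0.932 (0.723 to 1.21), Lamb1 at 0.993 (0.742 to 1.35), Lamb2 at 0.988 (0.785 to 1.25) and Lamc1 at 0.909 (0.758 to 1.09). Col15a1 was at 0.965 (0.806 to 1.16). The collagen IV chains ran higher or lower, with Col4a1 at 1.28 (1.02 to 1.63), Col4a2 at 1.42 (1.01 to 2.02), Col4a5 at 1.31 (0.869 to 2.02), Col4a4 at 0.793 (0.474 to 1.37) and Col4a6 at 0.659 (0.351 to 1.29). Other collagens also ran higher, with intervals above 1. Col5a1 was at 1.56 (1.24 to 1.99), Col5a2 at 1.52 (1.24 to 1.88) and Col14a1 at 1.43 (1.20 to 1.70). Col6a1 was at 1.34 (1.15 to 1.58), Col6a2 at 1.30 (1.08 to 1.57) and Col6a3 at 1.57 (1.21 to 2.04). Col16a1 was at 1.75 (1.02 to 3.20). Col5a3 (0.823), Col6a6 (0.741) and Col8a1 (0.833) ran lower, with intervals that held 1. No laminin interval reached 1.5, and those of Col1a1, Col1a2 and Col3a1 lay above 1.8. The fibroblast markers, summed, were alike in the 2 libraries (168 and 173 UMIs per 10000), but Dcn gave most of both sums (105 and 103). In proportion Clec3b rose most, from 12.5 in the anterior to 17.5 in the posterior library, and Tcf21 fell most, from 3.22 to 2.03. The mixed fibroblasts, labelled youngest, were lower than those of either regional library for all 3 fibrillar genes. Median depth was 4528 UMIs in anterior and 6255 in posterior fibroblasts, and its part in the result was not tested.

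**Figure D4:**
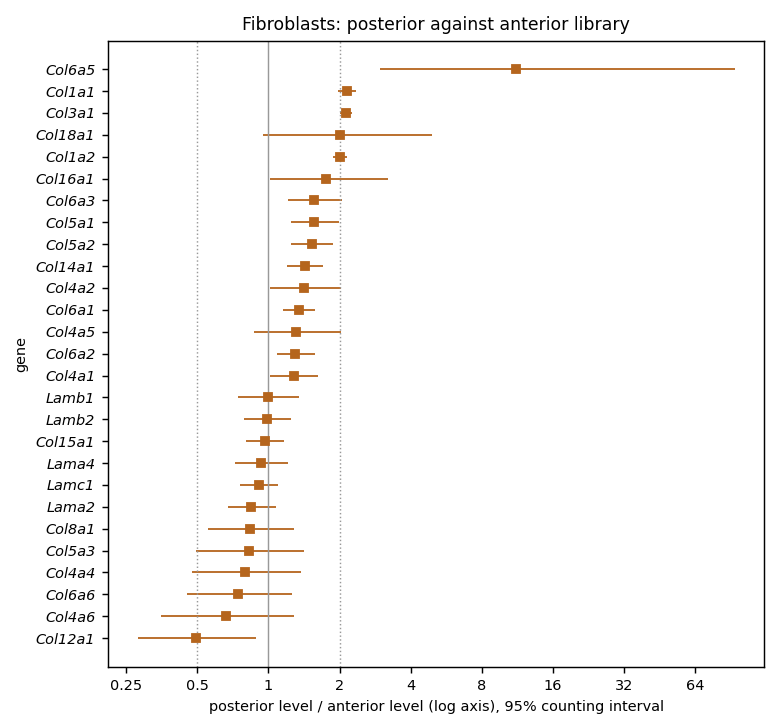
Posterior level divided by anterior level (log axis) of 27 collagen and laminin genes in fibroblasts, with 95% counting intervals. The solid line marks equal levels and the dotted lines 2-fold differences. Col1a1, Col3a1 and Col1a2 lie at the upper dotted line with narrow intervals, while the 5 laminin genes lie between 0.847 and 0.993.

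In the other classes the regional libraries were compared in the same way. In glia 1 of 26 genes with 20 UMIs was at least 2-fold higher in the posterior library (2.4% of all genes), Col8a1, at 2.24-fold (1.48 to 3.47), and 0 in the anterior one (1.33%). In mural cells 5 of 15 were higher in the posterior library (7.06%) and 0 in the anterior one (3.12%), with Col6a3 at 3.08-fold (1.54 to 6.82), on 10 and 49 UMIs. Col6a2, another of the 5, came to 1.73-fold with 1 more marker required of each cell, and 27.5% of its posterior UMIs were in 1 cell. In endothelial cells 2 of 4 were higher in the posterior library (9.08%), Col3a1 and Lamb1, and 0 in the anterior one (2.91%). Col3a1 was 2.65-fold higher (1.05 to 7.96) on 6 and 23 UMIs, and 52.2% of the posterior ones were in 1 cell. Lamb1 was 2.47-fold higher (1.04 to 6.76) on 7 and 25 UMIs. In neurons 11 of 35 were at least 2-fold higher in the posterior library (6.07%) and 0 in the anterior one (0.29%). Those 11 were Col1a1, Col1a2, Col3a1, Col4a5, Col5a1, Col6a1, Col6a2, Col8a1, Col15a1, Lamb2 and Lamc3. For each of them 1 posterior neuron held 8.57% (Lamb2) to 34.8% (Col4a5) of the posterior UMIs, with 28.3% for Col1a1 and 19.6% for Col1a2. In anterior neurons 1 cell held 56.2% of the Col1a1 UMIs and 1 held 48.4% of those of Col3a1. Col15a1 came to 1.89-fold with TMM factors. Fibroblast markers summed to 0.0547 UMIs per 10000 in anterior and 0.356 in posterior neurons, and their part in the result was not tested. Lama4, for which neurons held more than the markers of the other 4 classes gave, was at 0.262 and 0.289.

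Genes that process, bind or cut these chains were examined in 5 lists of 72 genes, of which 59 were tested. By the same stricter rule 19 were above each other class in fibroblasts (3.81% of all tested genes were), 3 in glia (6.62%), 4 in mural cells (3.16%), 2 in endothelial cells (4.02%) and 0 in neurons (19.9%). Here too a gene can pass the filter through the class where it is high. The counts of all 5 lists therefore describe the tested genes and are no evidence about the lists. Of 20 genes for collagen processing and cross-linking 14 were tested, and 6 were above each other class in fibroblasts, with 0 in any other class. Serpinh1, the collagen chaperone, stood at 9.50, 9.001 and 12.9 in fibroblasts and at 4.88, 4.91 and 5.55 in mural cells. Pcolce, which enhances removal of the procollagen end, stood at 5.84, 13.2 and 11.4 in fibroblasts and at 0.632, 0.731 and 0.572 in glia. Pcolce2 and Loxl1, a cross-linking oxidase, were the other 2 of the highest 4, and passed as well. Of 11 basement membrane partners, all tested, 2 were above each other class in fibroblasts, 1 in mural and 1 in endothelial cells. Nid1, the linker between laminin and collagen IV, stood at 3.74, 5.72 and 6.59 in fibroblasts and at 2.10, 2.15 and 2.07 in glia. Sparc, a collagen-binding protein, was high in all 4 non-neuronal classes and passed in none.

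Of 16 receptors for collagen or laminin, 14 were tested, and these spread over the classes: 3 were above each other class in fibroblasts, 3 in glia, 2 in mural and 1 in endothelial cells. Itgb1, the common integrin β chain, stood at 8.999, 11.5 and 12.6 in mural cells and at 7.44, 7.43 and 7.79 in endothelial cells, with 1.84, 2.90 and 2.93 in neurons. Bcam, a receptor for laminin α5, stood at 2.71, 3.55 and 3.94 in mural cells and at 0.453, 0.769 and 0.779 in neurons. Itga6, a laminin-binding integrin chain, stood at 3.08, 3.02 and 3.77 in endothelial cells, and Sdc4, a syndecan, at 6.55, 20.4 and 16.9 in glia. Of 13 other interstitial matrix genes 11 were tested, with 3 above each other class in fibroblasts and 1, Eln (elastin), in mural cells, at 12.3, 8.65 and 12.1. Of 12 proteases and inhibitors 9 were tested, and 5 were above each other class in fibroblasts, among them Mmp2 at 4.38, 6.17 and 6.23.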

How the data were processed

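The deposited files are count matrices, which per the file headers hold whole-number UMI counts per gene and cell barcode from Cell Ranger 3.1.0 (mixed) and 6.1.2 (anterior, posterior). The submitters' processing notes name Cell Ranger 7.1.0, Seurat 4.4.2 and mm10. Library totals were 119825307 (mixed), 55329380 (anterior) and 86391988 (posterior) UMIs. Cells with at least 1000 UMIs and 500 genes and at most 20% mitochondrial UMIs were kept. A class needed at least 3 of its 8 markers and at most 2 of any other of 9 lists, thresholds set after seeing the data. Scrublet (scanpy 1.11.5) called 22 of 7091 cells, or 0.310%, too few to rely on as a doublet filter, so no cell was removed by it. An alternative left out the 3% with the highest scores (213 cells). Counts were summed over cells to 15 sums and tested with edgeR 4.0.16 (R 4.3.3; TMM factors, filterByExpr, library as a block, Benjamini-Hochberg) after a test on simulated data. Alternatives were DESeq2 1.42.0, other filters, gates and depths, and each library left out. Named genes reached 1 UMI per 10000 in 1 class in 2 libraries or passed the stricter rule, with up to 4 per partner list. The members, lists and tests were chosen with earlier results of these data known. The values of 1 gene of the set are not reported here.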

Additional observations from a re-analysis of the deposited data

Results flagged for a closer look

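Lamc3, a laminin γ chain, was highest outside the 5 classes compared. In cells that passed the marker list of chromaffin or small intensely fluorescent cells, its level was 1.27 UMIs per 10000 in the mixed library (29 UMIs, interval 0.849 to 1.82). That was against 0.438 in fibroblasts, the highest of the 5 classes. Of the mixed, anterior and posterior neurons, 95.6%, 91.7% and 93.2% had at least 3 markers of that list, so neurons under 10000 UMIs could pass it. In the anterior library it was 0.641 (30 UMIs, interval 0.433 to 0.916), against 0.0910 in mural cells. The posterior library had 0.427 on 18 UMIs. Both values lay in cells outside the 5 classes compared above, and the intervals cover counting error only.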

How the results depend on the processing

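Of the 23 genes above each other class, 12 kept that call under all 14 alternatives: Col1a2, Col5a1, Col5a3, Col11a1, Col14a1, Col15a1, Col16a1, Col18a1, Col27a1, Col28a1, Lama2 and Lamc1. None of the 23 turned its direction against the next class where it was tested. The direction of the other named genes was not checked. With each library left out in turn, the fibroblast count of such genes ran from 8 to 12, the mural count from 1 to 2 and the endothelial count from 0 to 1. The genes called against the mean of the other classes then ran from 0 to 2 (glia, lower), 1 to 3 (mural, lower), 3 to 6 (endothelial, higher) and 3 to 8 (endothelial, lower). DESeq2 called 1 gene lower in fibroblasts, 4 in glia and 32 in neurons, and 2 above each class in mural cells. With all genes tested the lower counts were 1 in fibroblasts, 4 in glia and 11 in endothelial cells. Without TMM factors the glial count was 0. Without the library block (the paired analysis is the one reported, since classes come from the same library) the glial lower and endothelial above-each counts were 0. Thinned cells gave 0 for both, 1 lower in mural cells, and 3 higher and 3 lower in endothelial cells. With 1 more own marker 1 gene was lower in fibroblasts. Without neurons holding 3 glial markers 4 were lower in endothelial cells. With at most 1 foreign marker, chosen after seeing the data, 0 were lower in glia and 2 above each class in endothelial cells. As a mean over cells the summed level was 41.8 in glia and 1.69 in neurons. The fibroblast gene higher in the anterior library was lost (0) with TMM factors and with 1 more marker, and glia had 2 higher in the posterior library with TMM factors. Thinned to 1000 UMIs, or not at all, the mean share of cells with a UMI was 33.9% or 63.1% for Col28a1 in glia, 30.7% or 65.0% for Col18a1 in mural cells and 3.26% or 62.3% for Lama4 in neurons, and 83.1% at 1000 UMIs for Col3a1 in fibroblasts. Without neurons carrying glial markers, 73.3% of the genes of the set with 20 UMIs in neurons (11 of 15, beside 12628 of 12739 of all genes) stood 2-fold above the level other cells gave. That choice lowers the level itself. The cause of the other changes was not tested. Endothelial cells (22 to 30 per library) and mural cells (22 to 71) were few, which limits the precision of their levels.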
